A study of Bos taurus with 21 samples.

Results

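At 180 days post conception (dpc), muscle RNA of 2 Blonde d'Aquitaine (BA) and 3 Charolais (CH) foetuses was compared on 5 of the 21 arrays of the series, 1 array per foetus. BA and CH are French beef breeds, and BA is known for enhanced muscularity. The other 16 arrays held foetuses of both breeds at 110, 210 and 260 dpc. They were used here for the spread within groups, for the developmental change and for the same breed comparison in other foetuses.

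Both BA foetuses at 180 dpc were females of the sire Fallou. The CH foetuses were 2 females, replicate 1 of the sire Jourdan and replicate 2 of the sire Indiana, and 1 male, replicate 3, also of Jourdan. Breed therefore cannot be told apart from sire, and only the CH group held a male. No treatment was given. The sample labels name the muscle as Longissimus thoracis, whereas the study's methods name it m. Semitendinosus. The BA foetuses were not genotyped for *MSTN*, per the study's text. Of the slides, only slide 3 held both breeds at 180 dpc (BA replicate 2 and CH replicate 2), so for the other 3 foetuses slide and breed cannot be told apart. Skeletal muscle markers were bright on all 5 arrays, with 13 of 13 well above background. *ACTA1*, skeletal actin, read 10.26 and 10.93 in BA and 11.04, 11.02 and 10.88 in CH. *CKM*, muscle creatine kinase, read 9.24 and 9.26 in BA and 9.59, 9.77 and 9.41 in CH. In whole muscle, fewer cells of a type and less RNA per cell cannot be told apart.

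In foetal muscle of cattle, successive generations of myoblasts proliferate and fuse. Contractile proteins then pass from embryonic to adult isoforms, and the matrix around the fibres is laid down by fibroblasts. Myostatin, the product of *MSTN*, is a secreted brake on muscle growth, and loss of its function gives double muscling in cattle. The comparison at 180 dpc asked which genes separated the breeds midway through this course, and whether they did so in the direction of development.

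Levels are log2 intensities of single probes, less the 75th percentile of their array, with a constant of 2.69 added so that 0 lies near the median probe. A difference is BA minus CH on this scale, so 1 is a 2-fold difference. Each array had 43653 probes, of which 26628 were named and covered 12538 genes. A probe was tested when its mean was above 0 in at least 7 of the 8 breed-by-stage groups, which left 20132 probes and 7932 named genes. At 180 dpc the 75th percentile lay between 645.6 and 1083.2 intensity units, and 68.59 to 72.95% of the probes were well above background. Correlations between the 5 arrays were between 0.983 and 0.989. Of 4 Y-linked genes measured, *DDX3Y* (1.16) and *USP9Y* (2.22) were well above background only in the labelled male, *EIF1AY* in no foetus and *ZFY*, from 0.43 to 1.04, in all 5.

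Few single probes separated the breeds at 180 dpc. With limma over all 21 arrays and an adjusted p under 0.05, 0 of 20132 probes were higher in BA (0%) and 2 were lower (0.00993%). At an unadjusted p under 0.05 there were 564 higher and 678 lower. The median difference over all tested probes was 0, with an interquartile range from −0.13 to 0.12. With 2 against 3 foetuses, a two-sided exact permutation test over the 10 divisions of the 5 arrays can give no p below 0.1. The number of arrays limits the precision, and every p measures the spread between single foetuses of a group.

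The 2 probes past the threshold measured *KRT24*, a type I keratin, and *TMEM176B*, a membrane protein studied in dendritic cells. *KRT24* read −0.21 and 0.79 in BA and 1.86, 1.77 and 2.06 in CH. Every CH foetus was above both BA foetuses, and the BA foetuses differed from each other by more than the CH foetuses did. The difference was −1.61 (SE 0.23, limma adjusted p = 0.045), 3.05-fold lower in BA. *TMEM176B* read −0.80 and −0.63 in BA and 2.47, 1.75 and 1.42 in CH. Both BA foetuses were below 0 and all CH foetuses above 1. The difference was −2.59 (SE 0.39, limma adjusted p = 0.048), 6.04-fold lower in BA.

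Both calls were close to the threshold. With the slide as a block the differences were −1.42 and −2.28, each with an adjusted p of 0.58, and leaving out any 1 of the 5 arrays gave adjusted p values from 0.00098 to 0.33 for *KRT24* and from 0.11 to 0.33 for *TMEM176B*. The course of the 2 genes over the stages differed. *KRT24* was also lower in BA at 110 dpc (−1.16), with smaller differences at 210 (−0.39) and 260 dpc (−0.21), and its mean difference over those 3 stages was −0.59 (limma adjusted p = 0.07). *TMEM176B* differed by −0.60, 0.63 and −0.02 at these stages, a mean of 0.01. In BA it stood at 0.62 to 0.97 at 110 dpc and at 2.37 to 3.11 at 210 dpc, so both foetuses at 180 dpc were below every other BA foetus. Its difference at 180 dpc minus that at the other stages was −2.60 (limma unadjusted p = 2.3e-05), which did not pass after adjustment (limma adjusted p = 0.47). Over all probes, 0 of 20132 (0%) had a breed difference at 180 dpc unlike that at the other stages by this test, with 495 above and 551 below it at an unadjusted p under 0.05.

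**Figure D1:**
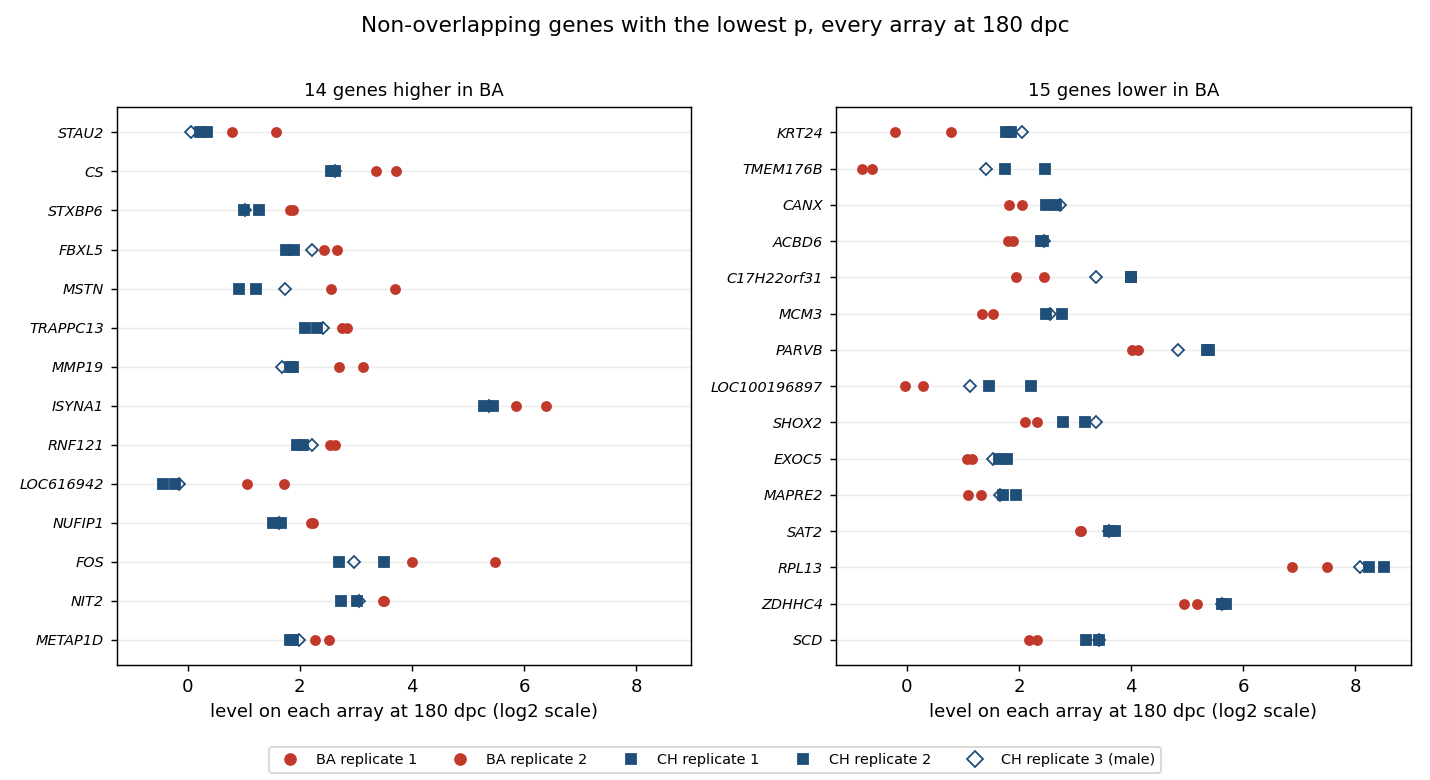
Level of 29 genes on each of the 5 arrays at 180 dpc (x axis, log2 scale), 14 higher (left) and 15 lower (right) in BA. They are among the genes with the lowest limma p among those whose breeds did not overlap, so the gaps between red (BA) and blue (CH) points were part of the choice. *TMEM176B* and *KRT24*, at the top right, are the genes past the adjusted threshold.

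The plot of 29 genes by array shows which foetuses carried the differences nearest to the threshold. *MSTN* was the gene with the largest difference among the 14 higher ones plotted. It read 2.56 and 3.70 in BA and 0.91, 1.22 and 1.73 in CH. BA replicate 2 was the highest, and the male CH foetus was nearest to BA. The difference was 1.85 (SE 0.41, limma adjusted p = 0.36). A second *MSTN* probe gave 3.12 and 4.26 against 1.18, 2.05 and 2.71, a difference of 1.71. In the foetuses of the other stages, which share no array with 180 dpc, *MSTN* differed by 2.06 (limma adjusted p = 0.0017) and was higher in BA at 110 (1.78), 210 (2.19) and 260 dpc (2.22). The difference at 180 dpc minus that at the other stages was −0.22 (SE 0.47, limma unadjusted p = 0.65).

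Other genes near the threshold had varied roles. Higher in BA were *STAU2*, which carries RNA (0.97), the iron-dependent ubiquitin ligase subunit *FBXL5* (0.60), the matrix metalloprotease *MMP19* (1.11), the inositol synthase *ISYNA1* (0.75) and *METAP1D*, a mitochondrial methionine aminopeptidase (0.50). *STAU2* read 1.58 and 0.79 in BA and 0.22, 0.35 and 0.06 in CH, and was highest in BA replicate 1. Its difference was 0.58 without BA replicate 1 (limma adjusted p = 0.92) and 1.37 without BA replicate 2 (limma adjusted p = 0.013). Lower in BA were *MCM3*, a subunit of the replication helicase (−1.16), *PARVB*, an actin-binding adaptor of focal adhesions (−1.12), *SHOX2*, a limb homeobox factor (−0.89), *ACBD6*, which binds acyl-CoA (−0.57), and *MAPRE2*, which binds microtubule ends (−0.57). *MCM3* read 1.34 and 1.54 in BA and 2.77, 2.48 and 2.56 in CH, and was also lower in BA at the other stages (−0.77, limma adjusted p = 0.016). *PARVB* read 4.13 and 4.02 in BA and 5.36, 5.39 and 4.83 in CH, while at the other stages it differed by −0.17. None of these passed the adjusted threshold at 180 dpc, with adjusted p values between 0.18 and 0.50.

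The probes of a gene did not always differ alike. For citrate synthase, *CS*, the probe in the plot differed by 0.93 and the brightest *CS* probe by −0.15. For the ribosomal protein gene *RPL13* the values were −1.09 and 0.15. Among the other lower genes plotted, *ZDHHC4* (−0.59) and *EXOC5* (−0.54) had 0 of 3 and 0 of 1 other tested probes with the same sign. No direction for these genes can be read from such a probe. For the chaperone *CANX* the values were −0.69 and −0.05, and the other 6 tested probes were also lower in BA, so the probes shared a direction and not a size.

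At the other stages 15 probes (0.0745%) passed as higher and 9 (0.0447%) as lower in BA. Both *MSTN* probes, *MMP19*, *MCM3*, the *CS* probe, *ACBD6* and *RNF121* were among them and had non-overlapping breeds in the same direction at 180 dpc. Follistatin, *FST*, which binds and blocks myostatin and activin, was lower in BA at the other stages (−0.56, limma adjusted p = 0.045). At 180 dpc it read 4.89 and 4.75 in BA and 5.47, 5.01 and 5.0 in CH, a difference of −0.34 (limma adjusted p = 0.82). *CINP* and *ABI2* passed at the other stages and each differed by −0.01 at 180 dpc.

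To describe functions beyond single tests, a gene was called apart at 180 dpc when a tested probe had both BA foetuses above or both below all 3 CH foetuses and a difference of at least 1. Such probes numbered 86 higher in BA (0.427% of those tested) and 56 lower (0.278%). They stood for 36 named genes and 37 unnamed probes higher, and 32 named genes and 15 unnamed probes lower. Because the genes were chosen by their values on these arrays, their levels at 180 dpc are a description. At the edges, *RCAN1* (1.01) was just inside and *DYRK1B* (0.98) just outside among higher genes, and *ITGB4* (−1.0) and *VASN* (−0.99) among lower ones. Within slide 3, where BA replicate 2 and CH replicate 2 were set side by side, 25 of the 36 higher and 14 of the 32 lower genes differed by at least 1. Among the 4 females the counts were 33 and 22.

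The largest functional group higher in BA was that of interferon response and histocompatibility. Interferons are secreted on infection and induce antiviral genes, and histocompatibility genes present peptides to T cells. Of the 36 genes apart, 13 were on these lists, 7 interferon response and 6 histocompatibility and antigen processing genes. *BOLA*, a class I heavy chain, read 9.07 and 8.51 in BA and 5.56, 6.52 and 5.43 in CH, a difference of 2.95. *PSMB9*, a subunit of the immunoproteasome, read 3.32 and 2.35 in BA and 0.86, 1.08 and 0.36 in CH, a difference of 2.07. *TAP2*, a peptide transporter, read 3.06 and 2.73 in BA and 1.91, 1.5 and 1.61 in CH, a difference of 1.22. In all 3 genes BA replicate 1 was the higher of the BA foetuses. *B2M*, the light chain of class I (1.41), and *BOLA-DRA*, a class II chain (1.04), were also apart. Class I genes have close copies in cattle, so which of them a probe measures is uncertain.

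Among interferon-induced genes, *MX1*, an antiviral GTPase, read 3.73 and 3.21 in BA and 2.43, 1.66 and 1.79 in CH, a difference of 1.51. *ISG15*, a ubiquitin-like modifier, read 2.29 and 1.38 in BA and 0.68, −0.47 and −0.10 in CH, a difference of 1.80. The chemokine *CXCL10* differed by 1.19, *IRF1*, an interferon regulatory factor, by 1.12, *IFI27* by 2.16 and *OAS1Y*, which activates RNA decay, by 1.94. *IFI47*, an interferon-inducible GTPase that is on neither list, read 4.51 and 4.59 in BA and 1.20, 1.22 and −3.05 in CH, and was above background in 4 of the 5. None passed the adjusted threshold, and the lowest adjusted p values were 0.72 for *TAP2* and 0.74 for *BOLA* and *IFI47*. For *IFI47* among female foetuses alone the difference was 3.34, with a limma adjusted p of 0.00036.

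The 2 lists as a whole lay on the same side. Of the 22 tested interferon genes 20 were higher in BA, with a median of 0.73, beside 50% of all named genes and a median of 0. In 16 of the 22 the breeds did not overlap with BA higher, whereas this held for 993 of 7932 named genes (12.5%). Of the 19 histocompatibility genes 15 were higher, 12 without overlap, with a median of 0.62. The chaperones *CANX* and *CALR* and the protease *ERAP1* were among the 4 that were not higher. The mean of the interferon list was 3.32 and 2.90 in BA and 2.53, 2.11 and 2.26 in CH, and that of the histocompatibility list 4.24 and 3.89 in BA and 3.39, 3.40 and 3.36 in CH. On both lists the 2 BA foetuses were above the 3 CH foetuses. With the slide as a block the medians were 0.35 and 0.34. *MX1*, *ISG15*, *IFI27*, *IFI6*, *RSAD2*, *OAS1Y*, *PSMB8* and *PSMB9* were picked by the study on these samples, so their direction is not independent evidence.

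Over the stages the interferon list did not keep 1 size of difference. Its median was 1.23 at 110, 0.73 at 180, 0.32 at 210 and 0.18 at 260 dpc. Single BA foetuses carried much of the difference at the other stages. At 110 dpc, BA replicate 3 had a list mean of 5.79 and the other BA foetuses 2.05 and 2.67. At 180 dpc both BA foetuses were above all CH foetuses of any stage, the highest of which had 2.65. Leukocyte markers were set beside these values, because leukocytes express both lists strongly. Of the 13 tested, 10 were higher in BA, 3 without overlap (beside 12.5% of all named genes), with a median of 0.22. The median was −0.04 without BA replicate 1 and 0.52 without BA replicate 2. Of the 31 measured, 23 were well above background on all 5 arrays and 2 on none, and their summed level was 7.89 and 7.64 in BA and 7.83, 7.59 and 7.74 in CH. The sums overlapped between the breeds, and the brightest markers, *CD4* and *CD3D*, weigh most in them. *PTPRC*, the defining marker CD45, read 2.34 and 2.45 in BA and 2.60, 2.71 and 2.52 in CH. *PTPRC* was thus lower in BA, unlike most of the list. BA replicate 1 was the highest of the 5 foetuses in 19 of the 31 markers measured, among them *CD53* (1.60, elsewhere at most 0.07) and *TYROBP* (2.51, elsewhere at most 1.42). The T cell markers *CD8A* (0.45) and *CD3E* (0.72) were higher in BA replicate 1 than in the other 4 foetuses, where they lay between −1.65 and −1.61 and between −2.57 and −1.10. *CD3G* (−1.33) was also highest there, but other T cell markers were not. BA replicate 1 was the lowest of the 5 in *CD3D* (5.11), *CD4* (5.88) and *GZMA* (−2.12), and *CD2* was highest in CH replicate 2 (0.77, beside 0.12 in BA replicate 1). The part of leukocytes in the interferon and histocompatibility values was not tested.

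**Figure D2:**
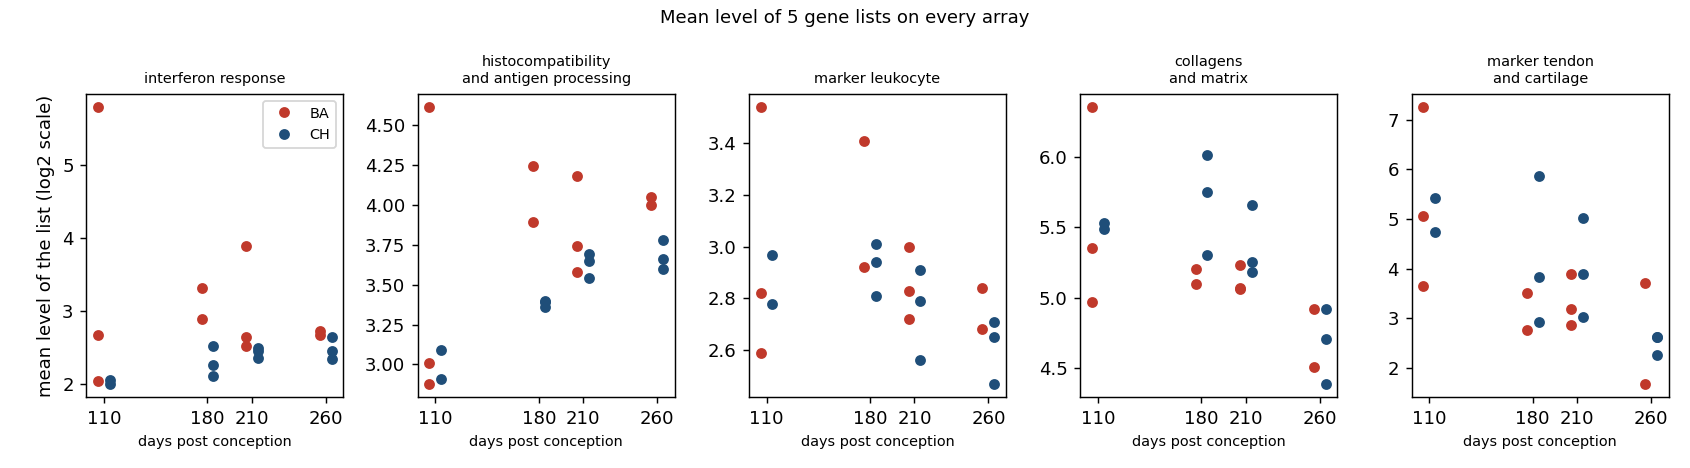
Mean level (log2 scale) of 5 gene lists on each of the 21 arrays, against days post conception, with BA (red) drawn to the left and CH (blue) to the right of each stage. At 180 dpc the interferon and histocompatibility lists were higher in both BA foetuses, the leukocyte markers and tendon and cartilage markers overlapped, and the collagen and matrix list was lower in both BA foetuses.

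Collagens and matrix formed the largest group among the lower genes. Of the 32 genes apart, 6 were on this list, namely *COL1A1*, *COL1A2*, *COL11A1*, *ELN*, *LOX* and *THBS1*. *COL1A2*, a chain of type I collagen, read 7.78 and 7.44 in BA and 8.63, 8.05 and 9.32 in CH, a difference of −1.05. *LOX*, which crosslinks collagen and elastin, read 3.12 and 3.02 in BA and 4.41, 3.28 and 5.13 in CH, a difference of −1.20. *ELN*, elastin, read 3.59 and 3.07 in BA and 5.13, 3.92 and 4.47 in CH, a difference of −1.18. CH replicate 2 was the CH foetus nearest to BA in these 3 genes, and the male CH replicate 3 the highest in *COL1A2* and *LOX*. *MGP*, a matrix protein that inhibits calcification (−1.25), *S100A4*, a calcium-binding protein of fibroblasts (−1.43), *CILP2* (−1.14), *COL8A2* (−1.07) and *CPXM2* (−1.09), which were not on the list, were apart in the same direction. *S100A4* read 3.09 and 2.63 in BA and 4.55, 3.59 and 4.72 in CH.

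Of the 36 matrix genes tested, 35 were lower in BA, with a median of −0.50, and *COL8A1* (0.21) was the other. In 20 of them BA lay below CH without overlap, beside 1078 of 7932 named genes (13.6%), and without CH replicate 2 the count was 33. Leaving out an array can only add to such a count, so the 33 cannot be set against the 13.6%. The brightest collagen probes showed the same. *COL1A1* read 8.10 and 8.22 in BA and 8.85, 8.57 and 9.06 in CH by that probe. *COL3A1* read 9.0 and 9.48 in BA and 10.09, 9.72 and 9.68 in CH. In both genes the breeds did not overlap, with differences of −0.67 and −0.60. The fibroblast receptor *PDGFRA* had the lowest p on the list and read 3.77 and 3.35 in BA and 4.49, 3.91 and 4.24 in CH. The list mean was 5.2 and 5.10 in BA and 5.75, 5.30 and 6.01 in CH. CH replicate 2 was the CH foetus nearest to BA, and the median was −0.66 without CH replicate 2, −0.35 without the male and −0.18 within slide 3. At the other stages the list had a median of −0.01, from −0.25 at 210 to 0.05 at 110 dpc.

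Tendon and cartilage markers moved with the matrix in 1 foetus. *COL2A1*, the defining collagen of cartilage, read 3.20 and 2.61 in BA and 3.97, 3.18 and 6.29 in CH. *TNMD*, tenomodulin of tendon, read 0.55 and 0.02 in BA and 1.17, −0.23 and 4.55 in CH. Both were far higher in the male CH replicate 3 than in the other 4. All 4 tested markers were lower in BA, with a median of −1.25, which was −0.13 without that foetus. Among them, *COL2A1* and *THBS4* are also on the collagen and matrix list, so the lists share these genes. Of the 13 measured, 8 were well above background on all 5 arrays and 3 on none, and their summed level was 6.87 and 6.32 in BA and 7.0, 6.42 and 8.14 in CH. Their part in the matrix values was not tested.

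Among the other genes apart, 4 belonged to muscle itself. *MB*, myoglobin, the oxygen store of muscle, read 8.62 and 8.09 in BA and 7.64, 7.63 and 6.46 in CH, a difference of 1.11, and a second probe gave 1.22. The male CH foetus was the lowest. At the other stages *MB* differed by −0.09. *MYH1*, the fast IIx myosin heavy chain, read 3.08 and 3.40 in BA and 5.28, 4.98 and 3.91 in CH, a difference of −1.48. The brightest of the 3 *MYH1* probes differed by −0.27. *S100A1*, a calcium-binding protein of striated muscle, read 3.30 and 3.01 in BA and 4.90, 4.05 and 4.11 in CH, a difference of −1.20, with −1.19 on a second probe. *TPM3*, slow tropomyosin, differed by −1.99 on the probe apart and by −0.23 on its brightest.

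*FOS*, an immediate early transcription factor that is induced within minutes by many stimuli, was apart on both of its probes. It read 5.49 and 4.01 in BA and 3.5, 2.70 and 2.97 in CH. BA replicate 1 was the highest of the 5, and CH replicate 1 was nearest to BA. The difference was 1.69 (SE 0.44, limma adjusted p = 0.50), and on the second probe 1.79. Other immediate early genes lay on the same side by less, *EGR1* by 0.74, *JUNB* by 0.49 and *IER2* by 0.47. Of the 25 genes on this list and its heat shock part, 18 were higher in BA, with a median of 0.09. The heat shock gene *HSPA1A* differed by −0.62.

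*SCD*, the desaturase that makes monounsaturated fatty acids, was lower in BA on 7 of 7 probes, by −1.10 on the probe apart and by −0.42 on the brightest. The probe apart read 2.17 and 2.33 in BA and 3.42, 3.19 and 3.43 in CH. Other adipocyte genes did not lie on 1 side. Of 19 tested, 7 were higher and 12 lower, with a median of −0.05. *GPAM*, a first step of triglyceride synthesis, differed by −0.72 and *RBP4* by −0.70. *FABP4*, a fatty acid carrier of adipocytes, read 0.00 and 0.76 in BA and 3.69, 0.14 and 3.77 in CH, so it was high only in the CH foetuses of the sire Jourdan.

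Of the remaining genes apart, some higher in BA were immune genes, among them *IRF4*, *C1QB* and *BoLA*, and the others had varied roles. Higher in BA were *ANG2*, an angiogenin-family ribonuclease (1.51), *UXS1*, which makes the UDP-xylose of proteoglycans (1.46), the lymphocyte factor *IRF4* (1.08), *SIT1* (1.17), *PARM1* (1.21), the paraoxonase *PON3* (1.79), *RTP4* (1.16), *C1QB*, a chain of complement C1q made by macrophages (1.03), *BoLA*, another class I sequence (2.17), *PLAC8B* (1.21), *LOC616942* (1.66) and *LOC407148* (1.08). *ANG2* read 3.16 and 3.26 in BA and 1.87, 1.20 and 2.04 in CH. Lower in BA were the signalling ligand *WNT2B* (−1.26), the dynein light chain *DYNLT3* (−1.36), *ADGRD1*, an adhesion receptor (−1.10), the myelin protein *MAL* (−1.02), *ASMT* (−1.04), *LOC100196897* (−1.48) and the ribosomal protein genes *RPL13*, *RPL17*, *RPS24* and *RPLP1*. *WNT2B* read 1.85 and 1.60 in BA and 3.24, 2.36 and 3.36 in CH, and at the other stages it differed by −0.72 (limma adjusted p = 0.15).

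In 6 of the genes higher in BA the male CH replicate 3 lay close to BA, apart from the CH females. *KLK9*, a kallikrein protease, read 5.74 and 6.22 in BA and 1.62, 1.47 and 5.74 in CH. *CLDN7*, a tight junction claudin, read 3.14 and 2.66 in BA and 1.23, 0.80 and 2.47 in CH. *KLF13*, *PRR3*, *S1PR5* and *USP39* had the same order, and at the other stages the differences of the 6 genes were between −1.33 and −0.12. For *KLF13*, *PRR3* and *USP39* the brightest probe differed by 0.06, 0.04 and 0.

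**Figure D3:**
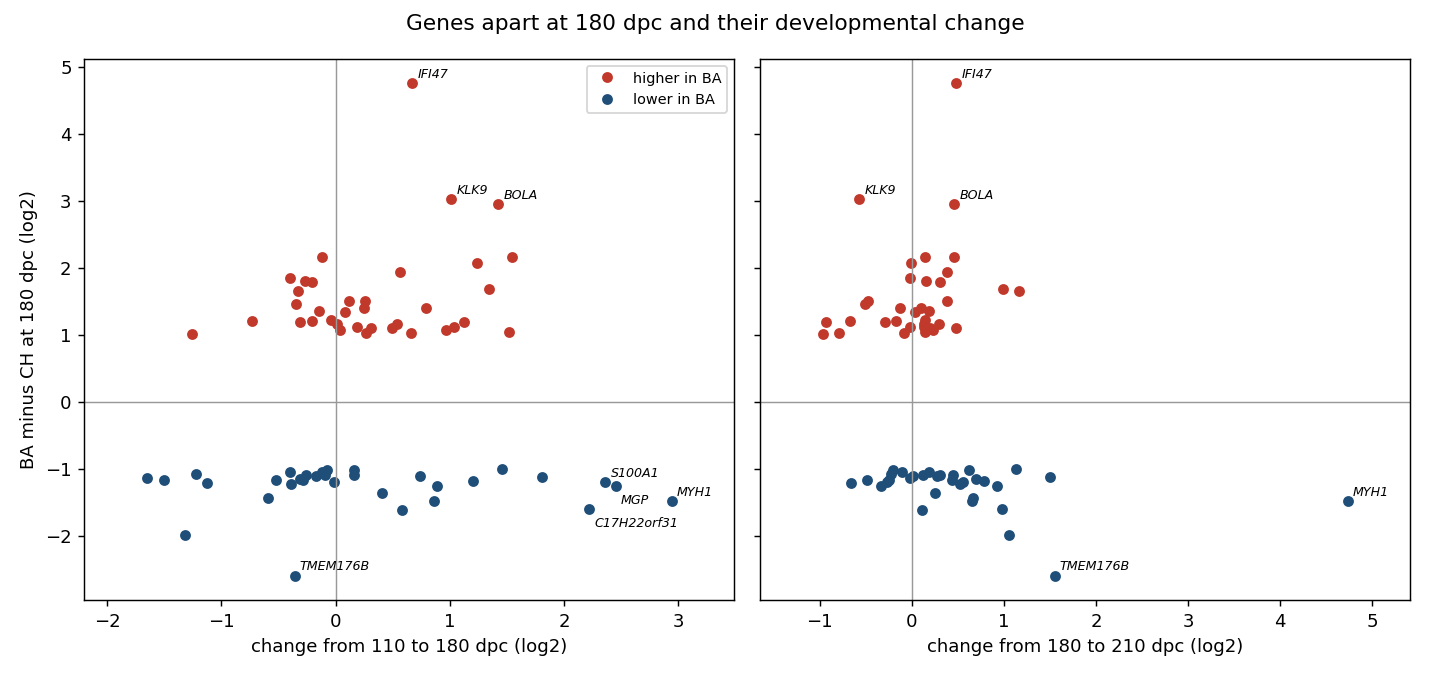
Breed difference at 180 dpc (y axis, log2, BA minus CH) of the 68 named genes apart against their change from 110 to 180 dpc (left) and from 180 to 210 dpc (right, x axes, log2). Red points are higher and blue points lower in BA. No point lies between −1 and 1 on the y axis because of the choice. Blue points to the right of 0, such as *MYH1*, increased with age and were lower in BA.

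The direction of development was then set against these differences. A gene was taken to follow a developmental change when its breed difference had the sign of that change, so that BA stood on the side of the later stage. The change was the difference between stage means, each 0.4 BA and 0.6 CH. With these weights a constant breed difference cancels. For probes with equal variance, the error of the change is then uncorrelated with that of the breed difference, though both use the 180 dpc arrays. From 110 to 180 dpc 2412 probes rose (12%) and 2172 fell (10.8%) at an adjusted p under 0.05. From 180 to 210 dpc 973 rose (4.83%) and 829 fell (4.12%).

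For the 36 genes higher in BA, the count that followed the earlier change varied with the foetuses used. For the change from 110 to 180 dpc 24 of 36 (66.7%) had the same sign, beside 46% of all named genes higher in BA. For the change from 180 to 210 dpc it was 22 (61.1%, beside 44.7%), and for the change from 110 to 210 dpc, which uses no array of 180 dpc, 27 (75%, beside 45.3%). In all these shares a gene apart was taken by its apart probe of lowest p, and all named genes by their brightest probe. The shares set beside each other thus rest on unlike choices of probe. Without CH replicate 3, 74 genes were apart and higher, and 29 of them had the sign of the change from 110 to 180 dpc. With an array of 180 dpc left out, the unchanged weights no longer match the shares of the breeds. The error of the change is then correlated with that of the breed difference, so the shift cannot be laid to that foetus. Most of the changes in the 36 genes were small. From 110 to 180 dpc the change passed in 4 genes that followed and 1 that ran against it, *RCAN1* (−1.26), an inhibitor of calcineurin. Of all 3965 named genes higher in BA, 402 followed and 472 ran against it with a change that passed. Among those that followed, *FOS* rose by 1.34 and then by 0.99, *IRF1* rose by 1.04 and *BOLA-DRA* by 1.52 from 110 to 180 dpc. *MSTN* changed by −0.40 and −0.02, neither of which passed, and stood higher in BA throughout. The 13 interferon and histocompatibility genes apart came from the same 5 foetuses and are not independent of each other.

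The 32 genes lower in BA split by the later change. For 110 to 180 dpc 18 (56.2%, beside 49.6%) had the same sign. For 180 to 210 dpc 9 did (28.1%, beside 45.6%), so 23 of the 32 ran against that change. Of the 23, 11 fell from 110 to 180 dpc and rose afterwards, so their lower level in BA was not on the side of 110 dpc. A dip at 180 dpc in BA alone gives the same signs. The *TPM3* probe apart stood at 3.53, −0.28 and 2.74 in BA at 110, 180 and 210 dpc, and at 1.37, 1.71 and 1.46 in CH. For 110 to 210 dpc 11 genes had the same sign (34.4%, beside 47.4%). Where the change passed, 10 genes ran against the first change and 2 followed it, and 6 ran against the second and 0 followed it. Of all 3967 named genes lower in BA, 630 ran against and 406 followed the first change, and 254 ran against and 139 followed the second. The second count varied with the foetuses used. Without CH replicate 2, 62 genes were apart and lower, and 34 of them followed the change from 180 to 210 dpc. With female foetuses alone 6 of 35 did. In both sets the weights no longer matched the shares of the breeds at 180 dpc, so these counts cannot be laid to 1 foetus. Over both directions 42 of 68 (61.8%, beside 47.8% of all named genes) followed the first change and 31 (45.6%, beside 45.1%) the second. Without CH replicate 3, where the weights did not match either, the share for the first change was 40.4% of 109 genes.

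The lower genes whose rise with age passed had varied roles. *MYH1* rose by 2.94 from 110 to 180 dpc and by 4.73 from 180 to 210 dpc. It lay between 1.01 and 1.44 in the 5 foetuses at 110 dpc and between 6.97 and 9.54 at 210 dpc, and at 180 dpc both BA foetuses were below all CH foetuses. *MGP* rose by 2.45 and 0.93, *C17H22orf31* by 2.22 and 0.98, *PARVB* by 1.81 and 1.5 and the integrin *ITGB4* by 1.46 and 1.13. *S100A1* rose by 2.36 in the first interval. In these 6 genes BA at 180 dpc was nearer to 110 dpc. *TMEM176B* rose by 1.55 from 180 to 210 dpc, from −0.72 to 2.77 in BA and from 1.88 to 2.14 in CH. The rise thus lay mainly in BA and rests on the same low values at 180 dpc that set the gene apart. The same held for the second rise of *C17H22orf31*, from 2.19 to 4.24 in BA and from 3.78 to 4.05 in CH. The place of both genes among those that ran against the change from 180 to 210 dpc is therefore not independent of the choice. *MCM3* went the other way. It fell by 0.52 from 110 to 180 dpc and was lower in BA, so it followed the change, as did *CRABP1*, a retinoic acid carrier, which fell by 1.5.

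**Figure D4:**
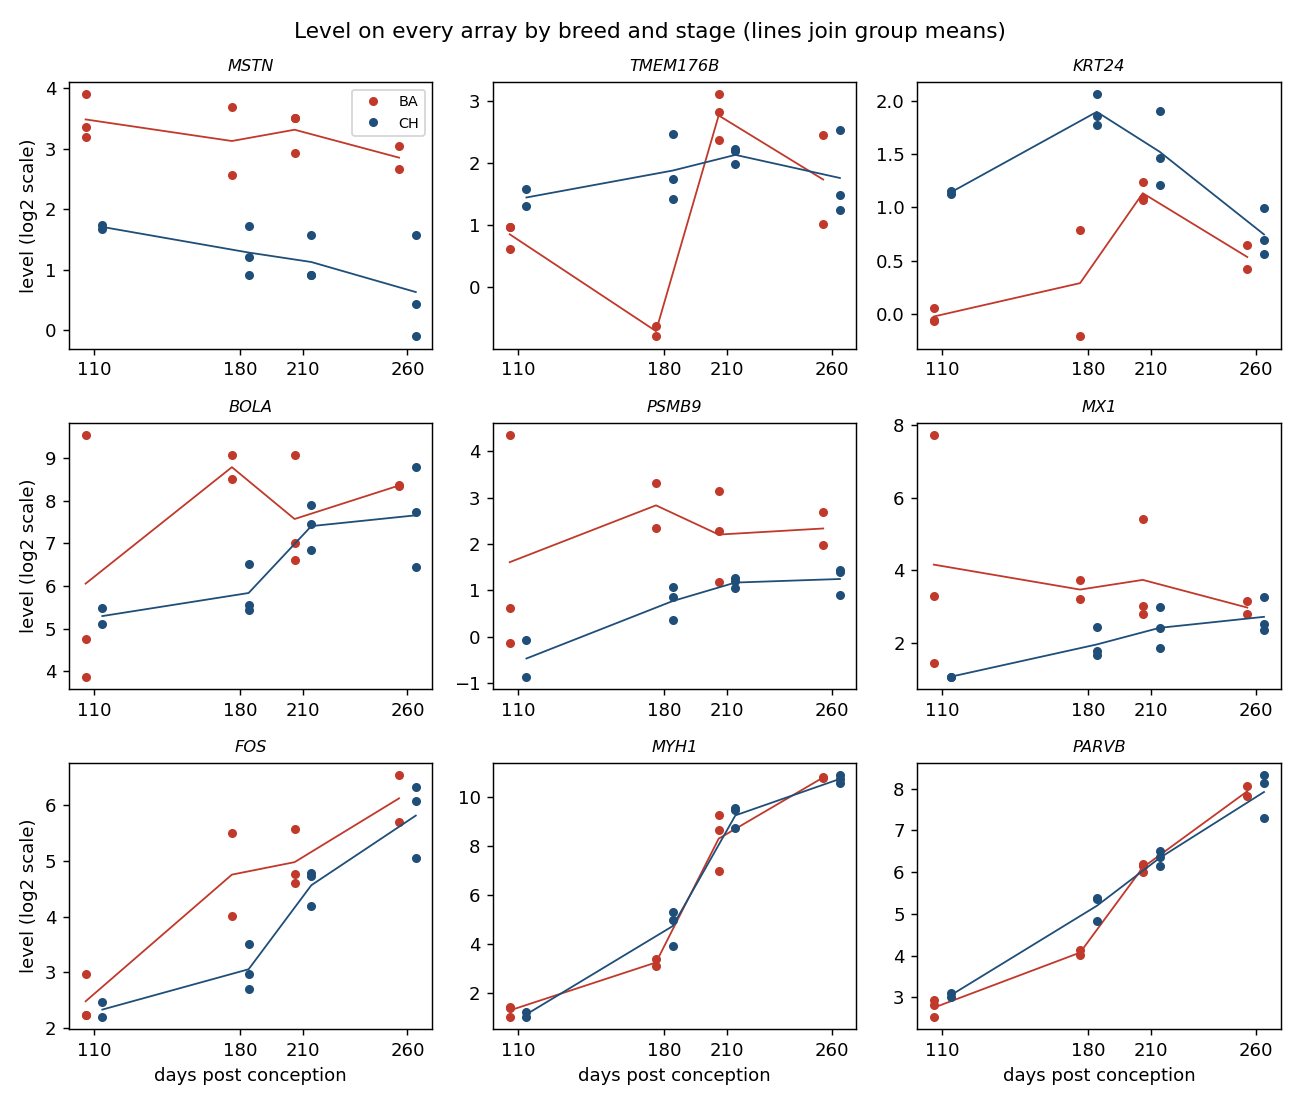
Level (y axis, log2 scale) of 9 genes on every array against days post conception, BA in red drawn to the left and CH in blue to the right of each stage, with lines through the group means. *MSTN* was higher in BA at all 4 stages, *TMEM176B* was low only in BA at 180 dpc, and *MYH1* and *PARVB* rose in both breeds with BA below CH at 180 dpc.

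The lists of the muscle programme showed how far single genes stood for a function. Of the 12 fast fibre genes tested 9 were lower in BA, with a median of −0.13. From 110 to 180 dpc 9 of them rose and 0 fell, beside 12% of all probes that rose and 10.8% that fell. The slow fibre list had 11 of 13 lower, also with a median of −0.13. *PLN*, phospholamban, which restrains the calcium pump, read 1.76 and 1.17 in BA and 2.33, 2.48 and 2.14 in CH, and *MYL2*, a slow light chain, differed by −0.43. *MYH7*, the slow myosin heavy chain, read 9.59 and 9.42 in BA and 9.67, 9.85 and 9.35 in CH, and the breeds overlapped. Embryonic and foetal contractile genes had 6 of 9 higher and a median of 0.07. *MYMK*, myomaker of myoblast fusion, read 4.83 and 5.06 in BA and 3.90, 4.64 and 3.99 in CH, a difference of 0.77, and with age it fell by 1.07 and then fell by 1.77. Myogenic regulators had 7 of 11 higher and a median of 0.06. For *MYOD1* and *MYOG*, transcription factors of myoblasts, the differences were 0.98 (SE 0.93) and 0.47 (SE 0.3). The breeds overlapped in *MYOG*, and *MYOD1* differed by −2.64 at 110, −1.22 at 210 and 0.62 at 260 dpc.

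Genes of proliferation lay on the lower side in BA. Of the 18 cell cycle genes tested 17 were lower, 7 without overlap (beside 13.6% of all named genes), with a median of −0.22. Without BA replicate 2 the count without overlap was 16, and without CH replicate 2 or 3 it was 11. Leaving out an array can only add to this count, and the 13.6% belongs to all 5 arrays, so these counts cannot be set against it. *TYMS* and *RRM1*, of nucleotide synthesis, each differed by −0.28. *TYMS* read 4.67 and 4.61 in BA and 5.0, 4.84 and 4.91 in CH. From 110 to 180 dpc 15 of the 18 genes fell and from 180 to 210 dpc 6 fell, with 0 that rose, beside 10.8% and 4.12% of all probes that fell. At the other stages the median breed difference of the list was −0.04. In the IGF system, which promotes growth, 4 of 10 were higher with a median of −0.10. *IGFBP4*, which binds IGF, read 3.67 and 3.94 in BA and 5.03, 4.88 and 4.21 in CH, a difference of −0.90. *IGF1* differed by −0.33 and *IGF2R*, the receptor that clears IGF2, by −0.33, while *IGF2BP3* was 0.53 higher.

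In the myostatin and activin pathway, receptors and mediators differed by less than *MSTN*. Of the 14 genes 5 were higher and 9 lower, with a median of −0.18. The receptor *ACVR2B* read 2.85 and 2.85 in BA and 2.46, 2.70 and 2.47 in CH, a difference of 0.31. *WFIKKN2*, which binds myostatin, read 0.92 and 0.61 in BA and 1.20, 1.13 and 1.29 in CH, a difference of −0.44. In both the breeds did not overlap. *SMAD2*, *SMAD3* and *SMAD4*, which carry the signal to the nucleus, differed by 0.04, 0.09 and −0.03.

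Metabolic lists differed little. Oxidative phosphorylation genes had 63 of 75 lower in BA, with a median of −0.09 and 17 without overlap (beside 13.6% of all named genes). *ATP5MC1*, of the ATP synthase, read 6.60 and 7.07 in BA and 7.33, 7.35 and 7.16 in CH, a difference of −0.44. Citrate cycle and fatty acid oxidation genes had 31 of 39 lower, with a median of −0.11, among them *CKMT2*, a mitochondrial creatine kinase (−0.69). Glycolysis and glycogen genes had 17 of 27 lower, with a median of −0.03. The insulin-regulated glucose transporter *SLC2A4* read 4.34 and 4.24 in BA and 4.80, 5.02 and 4.72 in CH, a difference of −0.56. *SLC2A1*, the basal glucose transporter, read 3.6 and 2.81 in BA and 2.62, 2.62 and 2.70 in CH, a difference of 0.56. Of the neuromuscular junction and calcium genes 8 of 16 were higher, with a median of 0.01. The amino acid response list had 11 of 26 higher (median −0.04) and the limb position list 2 of 7 (median −0.11). Among markers of other cells, endothelial genes had 5 of 16 higher (median −0.05), nerve and Schwann cell genes 4 of 9 (median 0), smooth muscle and pericyte genes 1 of 7 (median −0.08) and erythroid genes 4 of 5 (median 0.41). Of the 13 tested skeletal muscle markers 3 were higher, with a median of −0.09.

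**Figure D5:**
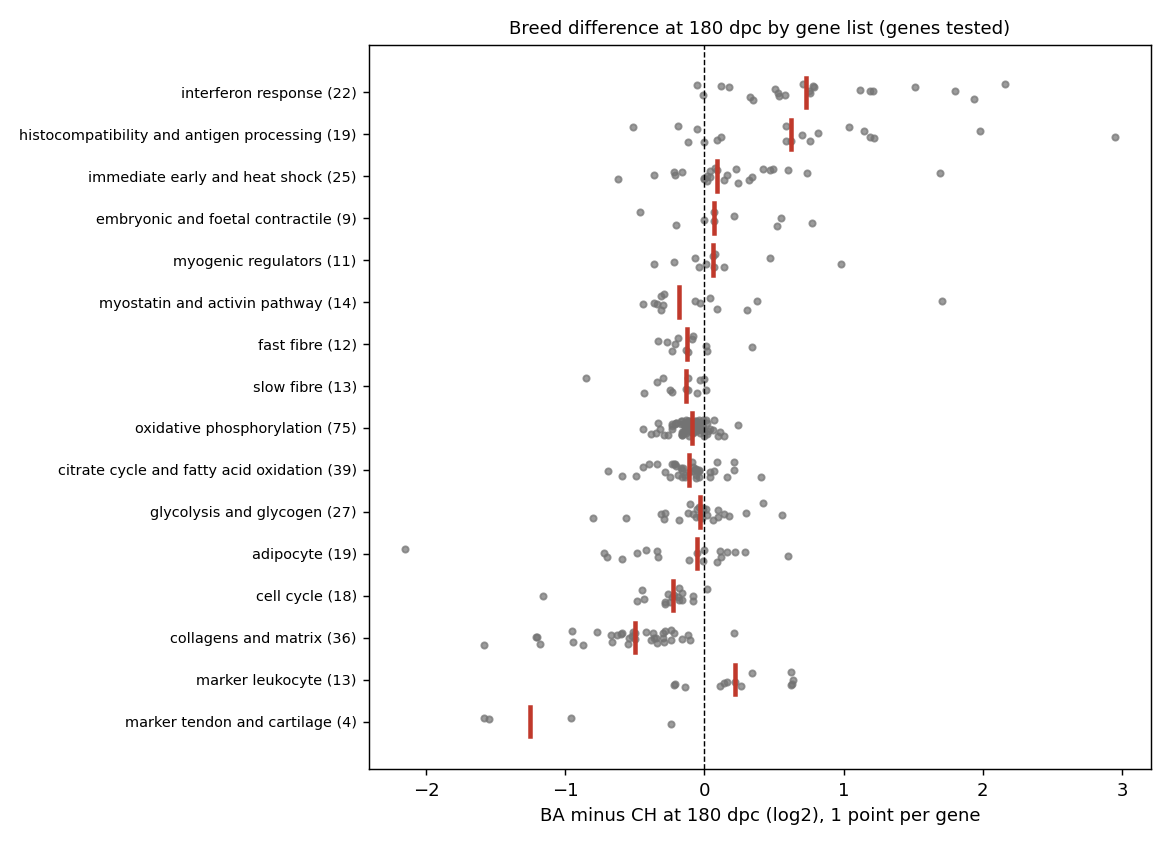
Breed difference at 180 dpc (x axis, log2) of every tested gene of 16 lists, 1 point per gene by its brightest probe, with the list median as a red bar and the number of genes in brackets. The dashed line is the median of all named genes, 0. The interferon and histocompatibility medians lie at 0.73 and 0.62, the collagen and matrix median at −0.50, and those of the fast fibre, slow fibre and metabolic lists between −0.13 and −0.03.

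Probes measured in 1 breed alone were looked at without the filter. Of 43653 probes, 98 were well above background in both BA foetuses and in no CH foetus, and 135 in all CH foetuses and no BA foetus. A bound was set against the lowest signal well above background on each dim array. By it, 52 of the former and 37 of the latter differed at least 2-fold. The largest bounds in BA were those of the interferon-induced GTPases *GBP1* (at least 17-fold, limma adjusted p = 0.71) and *GBP5* (at least 8.74-fold, limma adjusted p = 0.69) and of the chemokine *CXCL9* (at least 13.6-fold, limma adjusted p = 0.37). *GBP1* read 2.10 and 0.38 in BA, more in replicate 1. *LOC782922* differed at least 5.02-fold and passed without the filter (limma adjusted p = 0.04), with −1.12 and 0.07 in BA and −4.76, −5.13 and −4.79 in CH. In CH the bounds were smaller, with *PI15*, a protease inhibitor, at least 3.65-fold (limma adjusted p = 0.70) and a further probe of *COL11A1* at least 3.53-fold (limma adjusted p = 0.83).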

How the data were processed

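RNA of 21 foetal muscles was hybridised to 1-colour Agilent bovine arrays, 1 per foetus. The deposited intensity values were made by the authors with Agilent Feature Extraction 10.7, with detrending and no background subtraction, and were not scaled between arrays. The authors' value table holds log2 values, of which 99.985% lay within 0.01 of the log2 of that processed intensity. It was an alternative here.

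From the intensities, control spots and 258 outlier spot values were left out, spots of a probe were averaged, and log2 values less the array's 75th percentile entered a model of 8 group means (limma 3.58.1, R 4.3.3; residual degrees of freedom 13, prior 3.79), with Benjamini-Hochberg adjustment over 20132 probes. Probes were named through accessions, and list genes were taken by their brightest tested probe. Named were genes past the threshold, the 15 non-overlapping genes of lowest p and the 5 of largest difference in each direction, probes above background in 1 breed alone, and up to 6 genes a list, with defining members and genes the study names; the other genes apart, *IFI47* and a few further list members were added after their values were seen. Of these, 1 gene is not reported here. The members and lists were chosen with earlier results of these data known. Alternatives covered scaling, background, filter, sex, slide, scan day, sire, replicate number and leaving out each array. The fit was tested on simulated data.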

Additional observations from a re-analysis of the deposited data

How the results depend on the processing

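With 0 probes higher and 2 lower in BA at 180 dpc, calls depended on the processing. The number higher was 2 with the authors' value table, 8 without the filter, 2 with females only, 5 with the arrays of 180 dpc alone and 0 to 2 leaving out 1 array. The number lower was 0 with normexp, sex as a covariate, the slide or scan day as a block, or the 5 arrays alone, 1 with females only or a trended prior, 4 without the filter and 0 to 3 leaving out 1 array. With the replicate number as a block it was 1. The correlation of deviations was 0.147 and 0.243 for the 2 same-numbered pairs at 180 dpc, and had a median of 0.009 over all 66 such pairs of the series and −0.009 over the 126 others, so the numbers were not taken to pair foetuses. The breed difference at 180 dpc was above that at the other stages for 1 probe without the filter and 4 with females only, and below it for 1 with the authors' table and 0 to 1 leaving out 1 array. *MSTN* passed with the authors' table (1.99, adjusted p = 0.045 in limma), which is unscaled and shifts the median of all probes by 0.14. *PARVB* passed with females only (−1.30, limma adjusted p = 0.026).

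Of the genes apart, 42 followed the change from 110 to 180 dpc, 22 by the change in CH alone, 6 counting only changes that passed, and 39 to 103 leaving out 1 array, as the number apart changed. For 180 to 210 dpc the 31 became 48 by CH alone, 13 by BA alone, 2 counting only changes that passed and 38 to 64 leaving out 1 array. The change in 1 breed alone shares arrays of 180 dpc with the breed difference, with no weights to cancel their error. With 1 of those arrays left out the unchanged weights do not cancel it either. Such counts are tied to the breed difference by design and were not read as a difference in timing. Genes without overlap numbered 20 to 33 for the matrix and 7 to 16 for the cell cycle list leaving out 1 array, which can only add genes. *SLN* turned to 0.03 with quantile normalization and 0.02 with the authors' table. Leaving out 1 array of 180 dpc, *TPM1* lay between −0.40 and 0.03 and *MYH2* between −0.48 and 0.03, positive without BA replicate 1. Over 121 probes of named genes, 4179 of 4234 values kept their direction and side of the threshold. The size of the tie between the counts and the breed difference, and the cause of the other shifts, was not tested.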

Other observations

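Single probes of 4 ribosomal protein genes were lower in BA at 180 dpc and higher in BA at the other stages, and their genes have many near-identical copies. *RPL13* differed by −1.09 and 0.38, *RPS24* by −1.17 and 0.53, *RPL17* by −1.22 and 0.55 and *RPLP1* by −1.15 and 0.68. The brightest probes of these genes differed at 180 dpc by 0.15, −0.49, −0.40 and −0.11. The *TPM3* probe apart went the same way, with −1.99 and 1.17. None of the differences between 180 dpc and the other stages passed in limma, and the lowest adjusted p of the 5, that of *RPL13* and *RPS24*, was 0.71.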
